A study of Mus musculus with 6 samples.

Results

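The genes described here are 37 genes of protein folding in the endoplasmic reticulum (ER), of ER-associated degradation (ERAD) and of the unfolded protein response, chosen by name from the 23358 genes in the deposited count table. All 37 were found in the table, and all 37 were abundant enough to test, among 16089 genes tested. They were measured by RNA-seq of total RNA from calvaria, the flat skull bones, of mice aged 2 to 3 days. Before freezing, the calvaria went through a digestion of 20 minutes with collagenase at 2 mg/ml and trypsin at 0.005%, so the RNA came from what was left after a short enzyme treatment. Ezh2, which encodes the histone methyltransferase of Polycomb complex PRC2, was conditionally knocked out (cKO) in 3 of the 6 libraries per their labels, and the other 3 were wild type (WT). The word Osx stands in the labels of both groups and is the former name of the Sp7 gene, whose product drives osteoblast differentiation. The labels give neither the Cre construct beyond that word, nor whether the WT mice carried it, nor the deleted stretch of Ezh2. Nor do they tie each library to its own mouse, so each p-value measures the spread between libraries, which may be technical. The WT libraries carry the numbers 14, 27 and 29 and the cKO libraries 8, 10 and 37, and values per library are listed in that order.

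Secreted and membrane proteins enter the ER unfolded. There the Hsp70 chaperone BiP, encoded by Hspa5, and the Hsp90 chaperone GRP94, encoded by Hsp90b1, hold them while they fold, calreticulin and calnexin bind their sugar chains, and protein disulfide isomerases form their disulfide bonds. Proteins that fail to fold are sent back to the cytosol and degraded by ERAD. When unfolded proteins build up, the sensors IRE1 (Ern1), PERK (Eif2ak3) and ATF6 raise the transcription of chaperone and ERAD genes, and IRE1 does so by splicing the messenger RNA of the transcription factor XBP1. Osteoblasts, the bone-forming cells of the calvaria, secrete large amounts of type I collagen, and their ER is accordingly large.

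Many chaperone genes carry a known stress element in their promoter, and its sequence is shown first. The members were chosen by name as genes of ER folding and of this stress response. The share of members with the element is therefore not independent of that choice. The ER stress response element, bound by NF-Y together with ATF6 or XBP1, has the letters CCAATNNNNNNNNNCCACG. RefSeq promoters of build GRCm38.p6, from 250 bases before to 50 bases after the start of transcription, were matched for 31 of the 37 members. An exact match on either strand was present for 10 of these 31 members (32.3%), against 37 of 27025 genes with a promoter in the table (0.137%). With up to 1 mismatch in the fixed letters, 15 of 31 members (48.4%) and 466 of all genes (1.72%) had a match. The sites of 5 members are written below in the direction of the element, with its fixed bases in capitals. They are those of Hspa5, the BiP gene, of 3 other members that were lower in cKO, and of Hsp90b1, the member with a match on each strand.
Hspa5: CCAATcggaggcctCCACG
Calr: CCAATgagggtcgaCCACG
Creld2: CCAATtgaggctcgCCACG
Syvn1: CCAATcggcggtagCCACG
Hsp90b1 site 1: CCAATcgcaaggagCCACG
Hsp90b1 site 2: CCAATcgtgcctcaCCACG

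These sites began 65 bases before the start of transcription in Hspa5 and 44 bases before it in Syvn1, both on the strand of the gene. In Calr and Creld2 the matches lay on the opposite strand, with their upstream ends 162 and 126 bases before the start. The other members with an exact match were Canx, Derl3, Dnajc3, Ero1lb and Pdia6. The related ER stress response element II, with the letters ATTGGNCCACG, was present in Dnajb11 and Herpud1, which are 2 of 31 members (6.5%) against 12 of all genes (0.044%). The unfolded protein response element TGACGTG was present in 3 members, Hspa5, Txndc11 and Txndc5 (9.7%), against 601 of all genes (2.22%). A composite site of the transcription factor ATF4, TGATGNAAT, was in the window of 0 of 31 members and of 293 of all genes (1.08%). A match is a match of letters in this window and shows no binding. Some members have more than 1 promoter, and the nearest start of each was compared with the start that the count table gives. Of the 31 members, 24 had a start within 10 bases of it, and for 7, Xbp1 and P4hb among them, it lay farther off. The match in Txndc5 was in a promoter other than the nearest one.

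The 250 bases before the start are printed for 3 members that were lower in cKO: Hspa5 at chr2:34771840-34772089 on the plus strand, Syvn1 at chr19:6046326-6046575 on the plus strand, and Sdf2l1, the member with the largest difference, at chr16:17132384-17132633 on the minus strand. Capitals mark exact matches to the ER stress response element and to the unfolded protein response element, and the Sdf2l1 window has none.
Hspa5: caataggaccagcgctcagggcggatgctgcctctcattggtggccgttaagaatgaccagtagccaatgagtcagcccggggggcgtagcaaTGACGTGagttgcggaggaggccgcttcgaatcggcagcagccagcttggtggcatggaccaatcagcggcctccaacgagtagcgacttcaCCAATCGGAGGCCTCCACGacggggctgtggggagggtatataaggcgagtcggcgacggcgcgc
Syvn1: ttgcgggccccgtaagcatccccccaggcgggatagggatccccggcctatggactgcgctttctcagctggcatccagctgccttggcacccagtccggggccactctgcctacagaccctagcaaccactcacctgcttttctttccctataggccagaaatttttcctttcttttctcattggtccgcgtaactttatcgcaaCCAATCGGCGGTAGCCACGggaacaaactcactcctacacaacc
Sdf2l1: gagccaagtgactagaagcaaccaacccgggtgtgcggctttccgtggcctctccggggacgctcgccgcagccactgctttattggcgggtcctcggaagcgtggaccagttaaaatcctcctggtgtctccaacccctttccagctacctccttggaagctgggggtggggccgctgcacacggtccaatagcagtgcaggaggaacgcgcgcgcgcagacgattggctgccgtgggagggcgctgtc

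Gene counts summed to between 60449016 and 95439578 per library, with a count in 18108 to 18427 genes. Levels are given as CPM, counts scaled to a common library size with TMM factors, and differences as log2 fold changes of cKO over WT with their standard error (SE) or 95% confidence interval. A gene is called lower or higher when the adjusted p of edgeR's quasi-likelihood test was below 0.05 over all genes tested. Ezh2 itself (mm10 chr6:47530274-47595030) was at 20.9 ± 0.68 CPM in WT and 19.9 ± 0.69 CPM in cKO (SD, n = 3), a log2 difference of -0.07 (adjusted p = 0.507). The count of the whole gene therefore did not tell the groups apart, and since the deleted stretch is not given it is no check of the labels. As calvaria is a bulk tissue, fewer cells of a type and less RNA per cell cannot be told apart in any result below.

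Chaperone, isomerase and ERAD genes and Xbp1 were among the genes lower in cKO calvaria. Of the 37 members, 12 were lower in cKO and 0 were higher, and 25 were not called. The 12 make up 32.4% of the members, where 6.45% of all genes tested were lower and 5.96% were higher. The members were chosen with earlier results of these data known, so their share is not independent of the data. All 3 cKO libraries lay below all 3 WT libraries for 22 members (59.5%), against 17.4% of all genes, and above them for 1 member, Ern1, against 17.2% of all genes. The median log2 fold change was -0.18 over the members and 0.01 over all genes, and 30 members had a negative and 7 a positive value. At an unadjusted p below 0.05, 20 members were lower and 1 was higher, where 2347 and 2328 of the 16089 genes were, and DESeq2 and limma voom also gave 0 higher members. Together the members took 7791, 7521 and 7561 CPM in the WT libraries and 6614, 6773 and 5986 CPM in the cKO libraries. The groups did not overlap in this sum, and cKO 37, the lowest library, was also the lowest of the 6 for 20 of the 37 members. The same library was lowest in chondrocyte markers, whose sum was 773 CPM there and 2195 to 8197 CPM in the other libraries. Without cKO 37, 13 members were lower, where 6.48% of all genes were. Without WT 29 or without cKO 8, 7 members were lower, where 2.36% and 1.81% of all genes were. Against a fold change of 1.2 in place of none, 3 members were lower, namely Sdf2l1, Hyou1 and Manf, where 0.311% of all genes were.

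**Figure D1:**
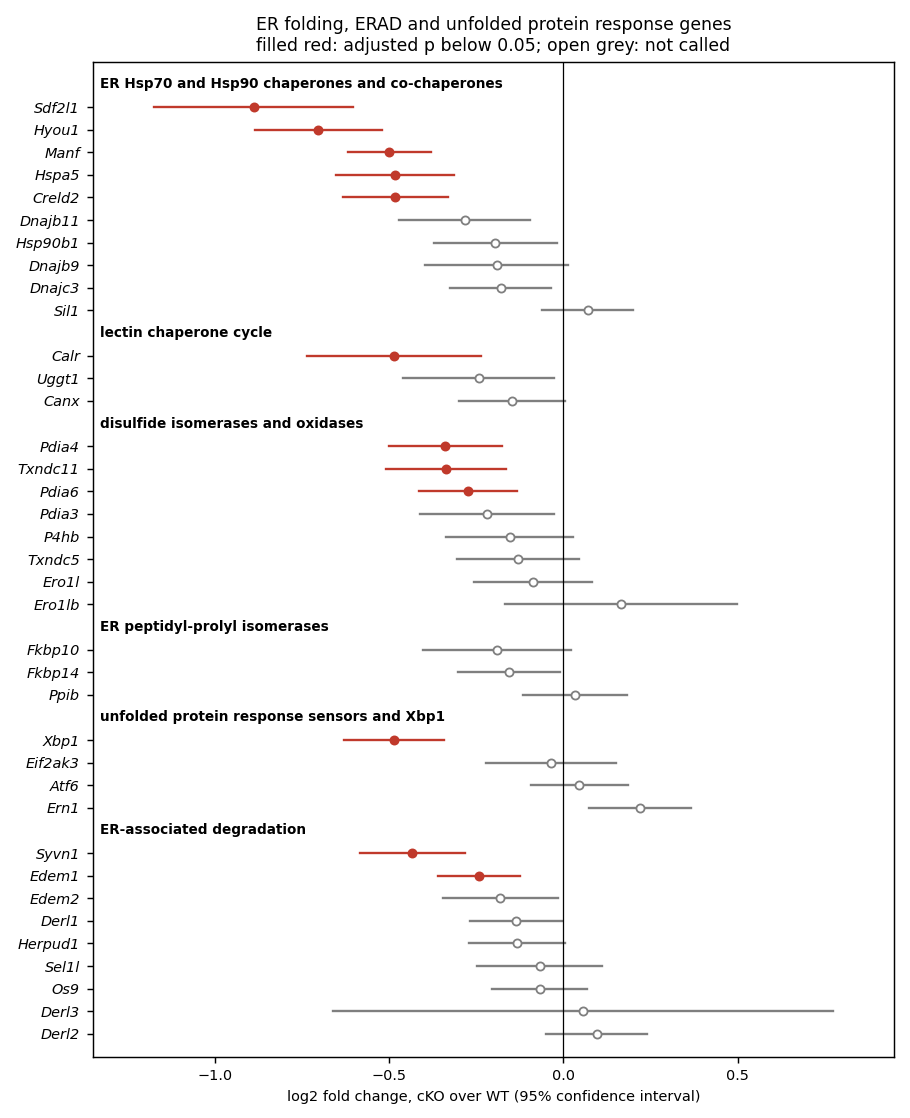
Log2 fold change of cKO over WT for each of the 37 members, grouped by role, with bars for the 95% confidence interval from edgeR's fit to 3 WT and 3 cKO libraries. The 12 filled points, all left of 0, have an adjusted p below 0.05, and the widest bar belongs to Derl3, the member with the lowest level.

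The chaperones of the Hsp70 and Hsp90 systems and their partners held the largest differences. Of 10 members with this role, 5 were lower in cKO, and the median log2 fold change was -0.38. Sdf2l1, an ER protein that works with the J-domain cochaperones of BiP (mm10 chr16:17130138-17132383), was at 8.88, 9.10 and 8.55 CPM in the WT libraries and at 3.87, 5.16 and 5.28 CPM in the cKO libraries. It was 1.85-fold lower in cKO (log2 fold change -0.89, SE 0.13, adjusted p = 0.0033), and every cKO library lay below every WT library by more than the spread within either group. Hyou1, a large Hsp70-related chaperone that exchanges the nucleotide of BiP (chr9:44379490-44392369), was at 122, 106 and 107 CPM in WT and at 67.6, 75.7 and 62.3 CPM in cKO. It was 1.63-fold lower (log2 fold change -0.70, SE 0.08, adjusted p = 0.00154). Manf, a secreted and ER-resident protein that binds BiP (chr9:106887415-106891938), was nearly level within each group, at 81.2, 80.9 and 81.6 CPM in WT and 57.5, 56.8 and 58.2 CPM in cKO. Its log2 fold change was -0.50 (SE 0.05, adjusted p = 0.00112). These 3 genes were lower in cKO in each of the 17 alternative analyses that were run.

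Hspa5 (chr2:34772090-34776529), whose promoter is printed above, was at 734, 668 and 661 CPM in WT and at 489, 510.4 and 478 CPM in cKO. The groups stood well apart, with a log2 fold change of -0.48 (SE 0.08, adjusted p = 0.00491). Creld2, an ER protein that is induced by ER stress (chr15:88819646-88826681), was at 35.9, 34.0 and 33.0 CPM in WT and at 22.7, 26.0 and 24.9 CPM in cKO. Its log2 fold change was also -0.48 (SE 0.07, adjusted p = 0.00295). Hsp90b1, the gene of GRP94, was at 695, 624 and 641 CPM in WT and at 586, 590.2 and 535 CPM in cKO. The libraries did not overlap, but the difference was small, with a log2 fold change of -0.20 (95% interval -0.37 to -0.02), and it was not called (adjusted p = 0.133). DESeq2 and the fit with an offset for gene length and GC content did call it (adjusted p = 0.0417 and 0.028). Whether Hspa5 and Hsp90b1 differed in their response was not tested. The J-domain cochaperones Dnajb11, Dnajc3 and Dnajb9 had log2 fold changes of -0.28, -0.18 and -0.19 (adjusted p = 0.0524, 0.0984 and 0.202). Dnajb11 passed with DESeq2, with no low-count filter, with the offset or without cKO 10 (adjusted p from 0.0214 to 0.0416), and Dnajc3 with the offset (adjusted p = 0.0131). Sil1, the second nucleotide exchange factor of BiP, had a positive value of 0.07 (95% interval -0.06 to 0.20). The 10 genes together summed to 1846 ± 96.2 CPM in WT and 1457 ± 54.8 CPM in cKO (SD, n = 3).

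**Figure D2:**
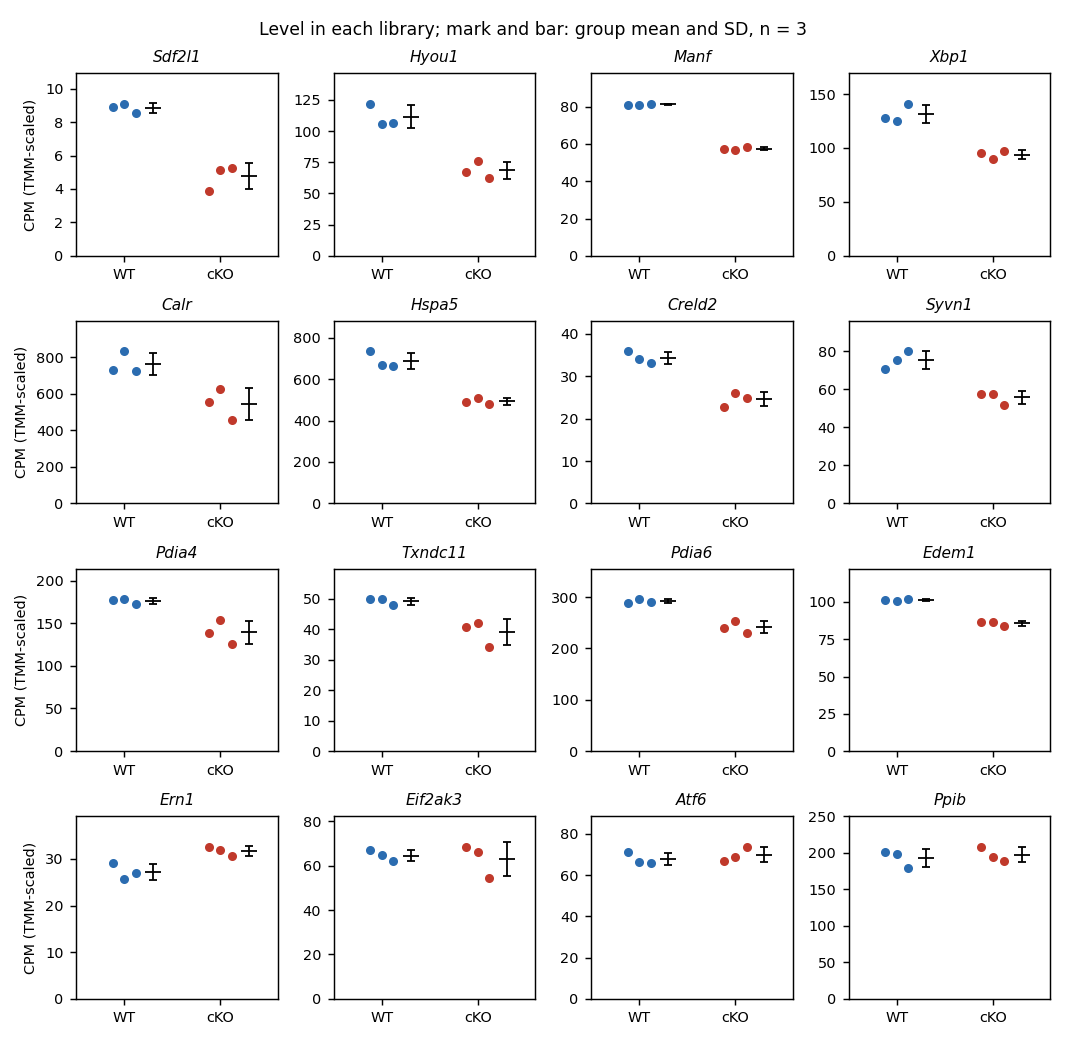
CPM in each WT (blue) and cKO (red) library for the 12 members that were lower in cKO and, in the bottom row, Ern1, Eif2ak3, Atf6 and Ppib, with a mark and bar for the mean and SD of 3 libraries. In the upper 12 panels no cKO point reaches the lowest WT point, while in the panels of Eif2ak3, Atf6 and Ppib the groups overlap.

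In the lectin cycle, which folds proteins through their sugar chains, 1 of 3 members was lower in cKO. Calr, the gene of calreticulin (chr8:84842088-84846931), was at 727, 832 and 725 CPM in WT and at 553, 624 and 455 CPM in cKO. The groups did not overlap. Its log2 fold change was -0.49 (SE 0.11, adjusted p = 0.0216). Without WT 27, WT 29 or cKO 8, Calr was no longer called (adjusted p = 0.071, 0.0557 and 0.0801). Canx, the gene of the membrane-bound calnexin, and Uggt1, the glucosyltransferase that returns unfolded glycoproteins to both lectins, had log2 fold changes of -0.15 and -0.24 and were not called (adjusted p = 0.187 and 0.128), though both were with the offset (adjusted p = 0.0248 and 0.0414).

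Among the disulfide isomerases and oxidases, 3 of 8 members were lower in cKO, with a median log2 fold change of -0.19. Pdia4, also called ERp72 (chr6:47796141-47813512), was at 177, 178 and 173 CPM in WT and at 139, 153 and 126 CPM in cKO, with a log2 fold change of -0.34 (SE 0.07, adjusted p = 0.016). Pdia6, an isomerase that also acts on the stress sensors (chr12:17266595-17284770), was at 288, 296 and 291 CPM in WT and at 240.0, 254 and 230.3 CPM in cKO, with a log2 fold change of -0.27 (SE 0.06, adjusted p = 0.0205). Txndc11, a thioredoxin-domain protein that works with the EDEM proteins of ERAD (chr16:11074911-11134532), was at 49.9, 49.7 and 47.9 CPM in WT and at 40.6, 42.1 and 34.2 CPM in cKO, with a log2 fold change of -0.34 (SE 0.08, adjusted p = 0.0206). In all 3 genes the WT libraries were tightly grouped, and cKO 37 was the lowest library. Their calls were less firm than those of Hspa5, Hyou1, Sdf2l1, Manf and Creld2, which held when any 1 library was left out. Pdia4 was lost without WT 29 or cKO 8, and Pdia6 and Txndc11 without any single WT library or without cKO 8. The adjusted p in these fits was from 0.0515 to 0.088. Txndc11 shares 76 bases with Snn in the count table, and since the use of strand is not given, reads there cannot be told apart. Snn, named because of this overlap, was higher in cKO (27.4 CPM in WT and 34.5 CPM in cKO, adjusted p = 0.00913).

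P4hb, the disulfide isomerase that is also a subunit of collagen prolyl 4-hydroxylase, was at 1117, 1075 and 1100.0 CPM in WT and at 1025, 1015 and 919 CPM in cKO. All cKO libraries were below all WT libraries, but the log2 fold change of -0.15 (95% interval -0.34 to 0.03) was not called (adjusted p = 0.249). Pdia3, the isomerase partner of the lectins, and Txndc5, a related isomerase, had log2 fold changes of -0.22 and -0.13, and Pdia3 was called by DESeq2 only (adjusted p = 0.0446). The oxidases Ero1l and Ero1lb, which recharge the isomerases, had values of -0.09 and 0.17. Ero1lb, at 4.56 ± 0.251 CPM in WT and 5.10 ± 1.04 CPM in cKO (SD, n = 3), had a wide interval, from -0.17 to 0.50.

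The prolyl isomerases, which turn proline bonds and of which PPIB and FKBP65 (Fkbp10) are known for their part in the folding of type I collagen, gave 0 calls among 3 members. Ppib was at 201, 198 and 179 CPM in WT and at 208, 194 and 189 CPM in cKO. The groups overlapped, and the log2 fold change was 0.03 (95% interval -0.12 to 0.18, adjusted p = 0.785). Fkbp10 and Fkbp14 had log2 fold changes of -0.19 and -0.15 (adjusted p = 0.225 and 0.151), and Fkbp14 was called with the offset (adjusted p = 0.0278). At an unadjusted p below 0.05, 1 of the 3 was lower, and DESeq2 and limma voom called 0 as well. Ppib and Fkbp10 share 1454 and 2520 bases with the neighbouring genes Snx22 and Nt5c3l in the count table, and reads in these stretches cannot be told apart without strand. The same holds for 89 bases of Syvn1 and Mrpl49 and 50 bases of Pdia6 and Atp6v1c2.

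Among the sensors and XBP1, only the transcription factor gene was called. Xbp1 (chr11:5520967-5525872) was at 128, 125 and 141 CPM in WT and at 95.1, 89.3 and 97.0 CPM in cKO. The groups did not overlap, and the log2 fold change was -0.49 (SE 0.07, adjusted p = 0.00225). A count per gene does not separate spliced from unspliced Xbp1, so the output of IRE1 was not measured. Ern1 was at 29.1, 25.6 and 26.99 CPM in WT and at 32.6, 31.9 and 30.6 CPM in cKO. It was the 1 member with all cKO libraries above all WT libraries, with a log2 fold change of 0.22 (SE 0.07), and it narrowly missed the threshold (adjusted p = 0.0514). With upper-quartile scaling, with a filter at a mean of 1 CPM or with an offset for gene length and GC content, Ern1 passed it (adjusted p = 0.0341, 0.0443 and 0.0483). Eif2ak3 was at 67.2, 64.7 and 61.9 CPM in WT and at 68.6, 66.2 and 54.4 CPM in cKO, and Atf6 at 71.2, 66.3 and 65.8 CPM in WT and at 67.0, 69.0 and 73.8 CPM in cKO. Both overlapped between the groups, with log2 fold changes of -0.04 (95% interval -0.22 to 0.15) and 0.05 (95% interval -0.09 to 0.18).

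In the ERAD group, 2 of 9 members were lower in cKO, and the median log2 fold change was -0.13. Syvn1, the gene of the ubiquitin ligase HRD1 at the centre of ERAD (chr19:6046576-6053718), was at 70.7, 75.2 and 80.0 CPM in WT and at 57.8, 57.5 and 52.0 CPM in cKO. Its log2 fold change was -0.43 (SE 0.07, adjusted p = 0.00477). Edem1, which helps to pick glycoproteins for disposal (chr6:108828641-108859356), was at 101, 100.5 and 102 CPM in WT and at 86.7, 86.5 and 83.7 CPM in cKO. The difference was small but larger than the spread within the groups (log2 fold change -0.24, SE 0.05, adjusted p = 0.0173), and the call was lost without WT 29 or without cKO 8 (adjusted p = 0.0705 and 0.067). Sel1l, the adaptor that pairs with HRD1, had a log2 fold change of -0.07 (95% interval -0.25 to 0.11). The channel proteins Derl1 and Derl2, the membrane protein Herpud1, the EDEM protein Edem2 and the lectin Os9 had values of -0.14, 0.10, -0.13, -0.18 and -0.07, and none was called, though Derl1 was without cKO 37 (adjusted p = 0.0489). Derl3, a paralogue of the channel proteins, was barely detected, at 0.683, 0.744 and 0.587 CPM in WT and 1.03, 0.548 and 0.52 CPM in cKO, which is 34 to 62 counts per library. Its interval, from -0.66 to 0.77, was the widest of all members, so that a difference of the size seen in Hspa5 was not detectable.

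Levels can be compared between genes only per length, and for this the deposited RPKM (counts divided by the length of the gene and by the size of the library) were used. The most abundant members, by mean RPKM over the 6 libraries, were P4hb at 306, Calr at 251, Hspa5 at 168, Hsp90b1 at 165 and Pdia3 at 162. Of these 5, Calr and Hspa5 were lower in cKO. The least abundant were Derl3 at 0.381, Ero1lb at 0.852 and Sdf2l1 at 4.59. The 12 lower members spanned most of this range, from Sdf2l1 to Calr, and the largest fold change belonged to the least abundant of them.

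**Figure D3:**
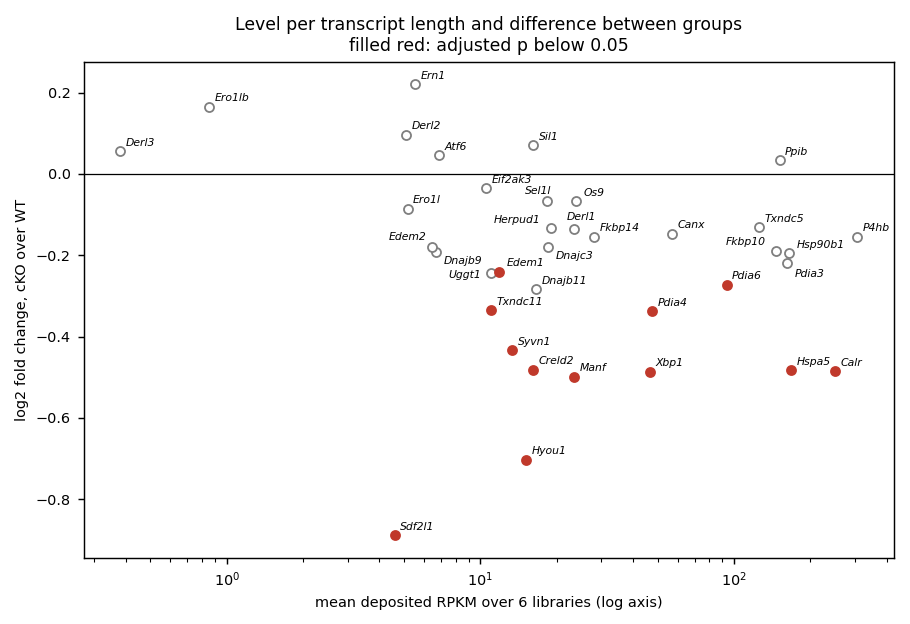
Mean deposited RPKM over the 6 libraries (log axis) and log2 fold change of cKO over WT for the 37 members, with filled points for an adjusted p below 0.05. Filled points lie from Sdf2l1 at 4.59 RPKM to Calr at 251 RPKM, and P4hb, the most abundant member at 306 RPKM, is not among them.

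Set against the promoter matches, 5 of the 12 members with an exact ER stress response element of either form were lower in cKO, with a median log2 fold change of -0.23. Of the 19 members with a promoter and no such match, 5 were also lower, with a median of -0.15. Sdf2l1 and Xbp1 were in the latter group, and Hyou1 and Manf had no promoter in the table. For Xbp1 and P4hb, also in that group, the RefSeq start lay 326 and 317 bases from the start in the count table. The bases just before the latter start were therefore not searched in these genes. Hsp90b1, with a match on each strand, and Derl3 and Ero1lb, at low levels, were not called. Outside the members, 27 genes had an exact ER stress response element, 9 of these were abundant enough to test, and 2 were higher and 1 was lower in cKO.

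**Figure D4:**
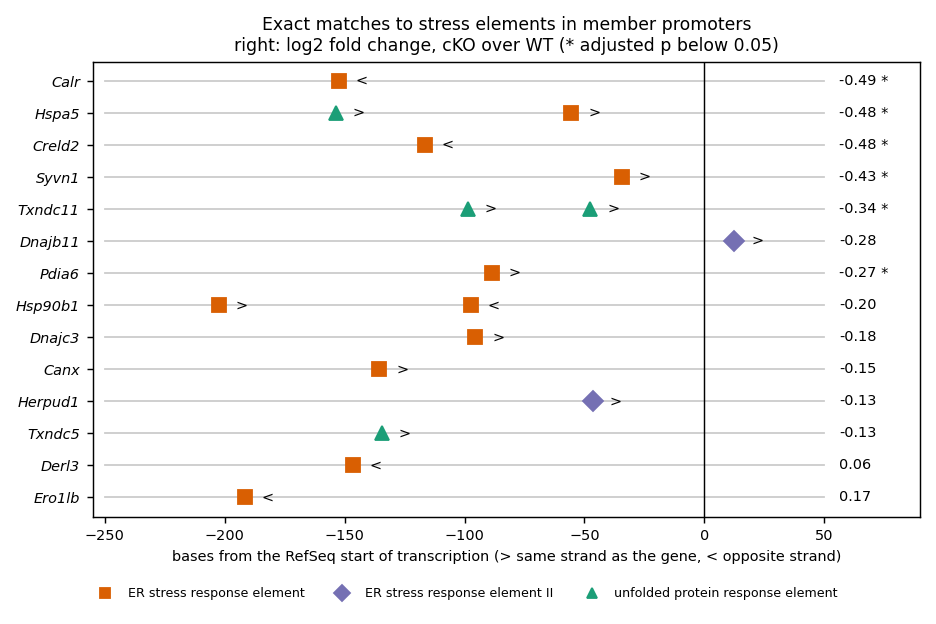
Centre of each exact match to 3 known elements in member promoters, in bases from the RefSeq start of transcription, with an arrow for its strand. At the right stands the log2 fold change of cKO over WT, and members with a match range from -0.49 in Calr to 0.17 in Ero1lb.

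Beyond the 37 members, 4 lists of other genes of the same pathways held 141 genes that were tested, of which 22 (15.6%) were lower and 5 (3.55%) were higher in cKO, with a median log2 fold change of -0.13. Like the members, these lists were chosen with earlier results of these data known. Among 43 other folding enzymes and lectins, 6 were lower (14%) and 0 higher, with 1 higher at an unadjusted p below 0.05. Of all genes tested, 6.45% were lower. Mlec, the gene of the ER lectin malectin, was at 376 ± 23.7 CPM in WT and 277 ± 9.48 CPM in cKO (SD, n = 3; log2 fold change -0.44, adjusted p = 0.00487). Kdelr3 and Kdelr2, receptors that return escaped chaperones to the ER, had log2 fold changes of -0.28 and -0.28 (adjusted p = 0.0129 and 0.0192), and Mogs, the glucosidase that starts the trimming of sugar chains, of -0.27 (adjusted p = 0.0205). Among 34 other ERAD genes, 0 were higher, with 3 higher at an unadjusted p below 0.05. Lower in cKO were 3 genes (8.82%), a share near the 6.45% of all genes. They were Ubqln1 and Ubqln2, which carry ubiquitinated proteins to the proteasome, and Ubl4, a part of the complex that shields exposed membrane segments, with log2 fold changes of -0.32, -0.29 and -0.22 (adjusted p = 0.0078, 0.0173 and 0.048).

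The machinery that brings proteins into the ER had 7 lower and 0 higher genes among 30 (23.3% lower), with a median log2 fold change of -0.17 and 2 higher at an unadjusted p below 0.05. In these 3 lists DESeq2 and limma voom also gave 0 higher genes. Of the 30, DESeq2 called 13 lower, where it called 8.63% of all genes, and limma voom 8, where it called 6.18%. Srprb, a subunit of the signal recognition particle receptor, was at 74.5 ± 2.62 CPM in WT and 55.5 ± 1.79 CPM in cKO (SD, n = 3; log2 fold change -0.43, adjusted p = 0.00261). Rpn1 and Magt1, subunits of the oligosaccharyltransferase that adds sugar chains, had log2 fold changes of -0.31 and -0.25 (adjusted p = 0.0153 and 0.0189), and Spcs2, a signal peptidase subunit, of -0.24 (adjusted p = 0.0288). Without WT 29 or without cKO 8, all 4 lists together gave 9 calls in place of 27. Calls over all genes fell too, from 959 higher and 1038 lower. They were 398 higher and 385 lower without WT 29, and 291 and 295 without cKO 8. Of the genes named from these 3 lists, Mlec, Ubqln1 and Srprb kept their call when any 1 library was left out, and the others lost it without at least 1 library, with adjusted p up to 0.175. Mogs also lost it with the offset for gene length and GC content (adjusted p = 0.135), and Ubl4 with upper-quartile scaling, halved counts or limma voom (adjusted p from 0.0513 to 0.0711).

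Regulators and effectors of the unfolded protein response differed in both directions, with 5 higher and 6 lower among 34 (14.7% and 17.6%). The largest difference was in A930001N09Rik, the older name of Crebrf, a regulator of the stress factor CREB3, which was at 20.5 ± 1.86 CPM in WT and 42.5 ± 4.49 CPM in cKO (SD, n = 3; log2 fold change 1.05, adjusted p = 0.000764). Nfe2l2, the gene of the antioxidant factor NRF2 and a substrate of PERK, was also higher (log2 fold change 0.58, adjusted p = 0.00418), as was Eif2ak2, an interferon-inducible kinase that shares the target of PERK (log2 fold change 0.79, adjusted p = 0.00668). Wfs1, the gene of the ER membrane protein wolframin, was lower (log2 fold change -0.51, adjusted p = 0.00668). Eif2ak4 and Casp12 were also higher, with log2 fold changes of 0.25 and 0.54 (adjusted p = 0.0272 and 0.0448). Eif2s1 was lower, with a value of -0.22 (adjusted p = 0.0484). Eif2ak4, Casp12 and Eif2s1 each lost their call without WT 14, without WT 29 or without cKO 8. Casp12 also lost it with the offset for gene length and GC content (adjusted p = 0.112). Eif2s1 also lost it with upper-quartile scaling, a filter at a mean of 1 CPM or limma voom (adjusted p from 0.0514 to 0.0691). Eif2ak4, Casp12, Eif2s1 and the genes that follow were chosen after their values were seen. Atf4, the transcription factor translated when PERK is active, and Ppp1r15a, the phosphatase subunit GADD34 that ends this state, were lower, with log2 fold changes of -0.33 and -0.74 (adjusted p = 0.00755 and 0.0298). Atf6b, the paralogue of Atf6, and Creb3l1, an ER-bound transcription factor known for its part in collagen synthesis, were lower as well, with values of -0.36 and -0.46 (adjusted p = 0.00995 and 0.0354). Ppp1r15a was no longer called without WT 29 or without any 1 of the cKO libraries, and likewise with no low-count filter or with the offset (adjusted p from 0.0523 to 0.0848), Creb3l1 without any 1 of the WT libraries, without cKO 10 or with the offset (0.0592 to 0.0973), and Atf6b without cKO 8 (0.0512).

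**Figure D5:**
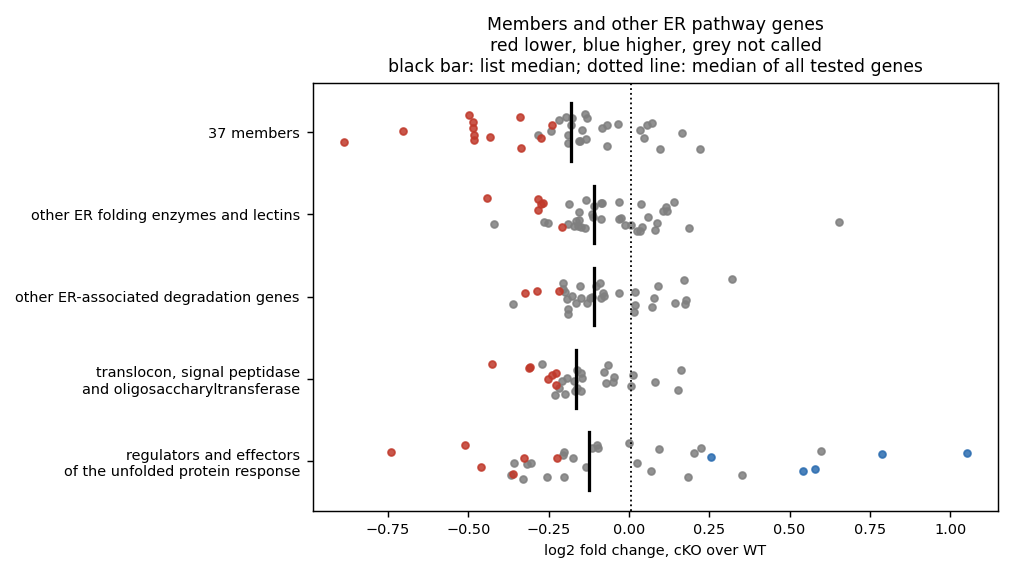
Log2 fold change of cKO over WT for each tested gene of the 37 members and of 4 lists of related ER genes, with a black bar for each list's median and a dotted line for the median of all genes. The medians of the 5 rows lie between -0.18 and -0.11, and higher genes (blue) appear only in the list of regulators.

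Cell type markers and other gene groups were read in the same libraries. Osteoblast lineage markers summed to 132500 to 180000 CPM in WT and 99060 to 134900 CPM in cKO, and Sp7 was among those that were lower, a call lost without WT 29 or without any 1 of the cKO libraries. Type I collagen, the sum of Col1a1 and Col1a2, took 12.6%, 12.8% and 16.6% of the counts in the WT libraries and 12.3%, 11.3% and 9.62% in the cKO libraries. Of the markers of B and plasma cells, which are rich in ER chaperones, 8 of 10 were below 1 CPM in every library, Tnfrsf17 among them. Their summed level, 175 to 218 CPM in WT and 175 to 205 CPM in cKO, was almost wholly that of Sdc1, at 173 to 216 CPM in WT and 173 to 203 CPM in cKO. Neutrophil markers were below 1 CPM for 7 of 7 genes. Macrophage and osteoclast markers summed to 3182 to 4491 CPM in WT and 2576 to 3200 CPM in cKO, and 2 of 7, Acp5 and Csf1r, were lower. Both calls were lost without cKO 8 or without cKO 37, and Mpeg1 had a positive log2 fold change of 0.41 (adjusted p = 0.137). Immediate early and heat shock genes, which respond quickly to stress and handling, summed to 4951 to 5507 CPM in WT and 3179 to 3543 CPM in cKO. Of these 13 genes, 11 were lower, where 6.45% of all genes were. The part of these marker differences in the lower level of the 37 members was not tested.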

How the data were processed

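RNA-seq libraries from calvaria, 3 WT and 3 cKO, were analysed. Per the submitters' processing notes, the authors used bcl2fastq, TopHat2 2.0.6, HTSeq and mm10. No source used here gives the annotation, parameters or strand setting. The authors deposited read counts per gene, which were used for all tests, and RPKM values, which were used only for levels between genes. All counts are even, so each counted unit adds 2, and halved counts served as an alternative.

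The fit used edgeR 4.0.16 under R 4.3.3: filterByExpr (minimum count 10), TMM scaling, the robust quasi-likelihood F test and Benjamini-Hochberg adjustment over 16089 genes. CPM are TMM-scaled. The biological coefficient of variation was 11.5%. The steps were tested on simulated data.

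Members and lists were chosen with earlier results of these data known. The rule for names covers all 37 members, with values per library for called ones and, whatever their p, for 9 genes (Hspa5, Hsp90b1, Xbp1, Ern1, Eif2ak3, Atf6, Ppib, P4hb and Derl3), up to 4 called genes per pathway list by smallest p, and Ezh2. Promoters are from RefSeq (GRCm38.p6); no promoter was matched for 6 members, Manf, Derl1, Fkbp10, Hyou1, Atf6 and Sil1. Protein sequences were planned but are not analysed here.

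Alternatives were RLE and upper-quartile scaling, other filters, halved counts, DESeq2 1.42.0, limma voom (limma 3.58.1), a threshold of 0.1, a test against a fold change of 1.2, an offset for length and GC content, library sizes without the most abundant genes, and each library left out. Some marker genes are not reported here.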

Additional observations from a re-analysis of the deposited data

How the results depend on the processing

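Of 17 alternatives, other scalings, filters, tools and halved counts gave 12 to 15 lower members, against 12. In these fits 4.75% to 8.63% of all genes were lower, and the 15 members and the 8.63% both belong to DESeq2. A test against a fold change of 1.2 gave 3 lower members, 112 calls among all genes and 1 among the other pathway genes. An adjusted p threshold of 0.1 gave 3277 calls among all genes and 53 among the other pathway genes. With this threshold, upper-quartile scaling, a minimum mean of 1 CPM, or the offset for gene length and GC content, 1 member, Ern1, was higher in place of 0. Upper-quartile scaling also moved the split over all genes from 959 higher and 1038 lower to 1191 and 764. The offset gave 18 lower members, where 7.53% of all genes were lower, and a median of -0.26. Leaving out 1 library at a time gave 7 to 13 lower members, where 1.81% to 6.48% of all genes were lower. These fits gave 0 higher members each time and member medians from -0.22 to -0.14. They gave 586 to 1985 calls among all genes and 9 to 29 among the other pathway genes. Sdf2l1, Hyou1 and Manf were lower under all 17. The cause of these shifts was not tested. No paired analysis was possible because the groups share no replicate number.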
